A study of Saccharomyces cerevisiae with 6 samples.

Results

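Trehalose is a disaccharide of glucose that budding yeast stores as a carbohydrate reserve and uses to protect proteins and membranes under stress. It is made by a complex in which Tps1 joins UDP-glucose and glucose 6-phosphate to trehalose 6-phosphate and Tps2 removes the phosphate, with Tps3 and Tsl1 as large regulatory subunits. It is split back to glucose by the neutral trehalases Nth1 and Nth2 in the cytosol and by the acid trehalase Ath1, which acts on trehalose outside the cytosol. Several of these genes are known targets of the stress transcription factors Msn2 and Msn4, and protein kinase A, the glucose-responsive kinase, restrains those factors and activates Nth1.

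The 7 genes of these enzymes were taken from the value table by the gene symbol of the array annotation. They are TPS1 (YBR126C), TPS2 (YDR074W), TPS3 (YMR261C) and TSL1 (YML100W) for synthesis and NTH1 (YDR001C), NTH2 (YBR001C) and ATH1 (YPR026W) for breakdown. They make up 7 of the 5711 genes with a symbol, each with 1 spot, and no member was missing on any array. The members were chosen by symbol and enzyme function, with no threshold on a value. The set as such was proposed with its log2 ratios on these same 6 arrays already known, so those ratios count as the values that chose it. The p-values printed for single genes come from a fit over all genes and serve as descriptions, not as independent evidence, and no test was made over the set.

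The series compares the strains ssy1KO, ssy1T9 and wt on 6 two-colour arrays, which read the RNA of 1 strain in Cy5 against that of another in Cy3. The array titles write S288C beside wt and give no background beside the names of the mutants. By its name ssy1KO lacks SSY1, the gene of the amino acid sensor of the plasma membrane, and ssy1T9 carries an allele of it that the labels do not describe further; no medium, growth phase or clone is given in the sources used here. Every 2 strains shared 2 arrays of opposite dye orientation. Arrays are named KO/wt, T9/wt and KO/T9, where array 1 has wt (or, in KO/T9, ssy1T9) in Cy5, and values of a pair are given with array 1 before array 2.

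Values are log2 ratios, with each array centred on its median gene and turned to read ssy1KO over wt, ssy1T9 over wt or ssy1KO over ssy1T9. The base of the logarithm was assumed, and every fold rests on it. The direction was taken as the one in which SSY1 lies lower in ssy1KO, so it is likely and not stated. With that direction SSY1 lay at -1.65 and -1.10 in ssy1KO over wt and at -1.86 and -1.87 in ssy1KO over ssy1T9. In ssy1T9 over wt it lay at 0.22 and 0.36. A value of 0 means that a gene stood like the typical gene of the array. Without centring the typical gene itself lay 0.16 higher in ssy1KO and 0.17 higher in ssy1T9 than in wt. Ratios carry no level of expression, and in RNA of whole cultures a change in some of the cells cannot be told apart from a change in all of them.

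Transcripts of both arms of trehalose metabolism were higher in the mutants. In ssy1KO 5 of the 7 genes rose against wt and none fell, and in ssy1T9 6 rose and none fell. TPS1 and the regulatory subunit gene TSL1 changed most, by 1.56-fold to 1.74-fold, and the trehalase genes NTH1 and ATH1 rose with them, by 1.30-fold to 1.39-fold. TPS3 and NTH2 showed the smallest values in both mutants. A gene counts as risen or fallen at an adjusted p under 0.05 in limma, a linear model fitted over 6 arrays with Benjamini-Hochberg adjustment over all genes. By the same rule 24.3% of all genes differed in ssy1KO, 13.8% higher and 10.5% lower, and 26.2% differed in ssy1T9, 14.1% higher and 12.1% lower. Without centring the split over all genes was 1807 higher and 155 lower in ssy1KO, against 789 and 597 with it, and 1838 higher and 176 lower in ssy1T9, against 803 and 691.

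TPS1, encoding trehalose 6-phosphate synthase, read 0.62 and 0.86 in ssy1KO over wt, 0.59 and 0.67 in ssy1T9 over wt, and -0.12 and 0.29 in ssy1KO over ssy1T9. It stood above the typical gene on all 4 arrays of a mutant with wt, and the KO/T9 arrays fell on either side of 0. As an example of how these readings arise, the deposited ratio on KO/wt array 1 was -1.20, read as wt over ssy1KO; less the array's median of -0.58 and with the sign turned it gives 0.62. In the fit TPS1 lay 1.66-fold above wt in ssy1KO (log2 0.73, SE 0.079, adjusted p = 9.36e-08) and 1.56-fold above wt in ssy1T9 (log2 0.64, SE 0.079, adjusted p = 8.93e-07). Of all genes, 1.84% had a higher value in ssy1KO and 2.26% in ssy1T9.

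TPS2, encoding the phosphatase that completes synthesis, read 0.27 and 0.24 in ssy1KO over wt, 0.33 and 0.58 in ssy1T9 over wt, and -0.14 and -0.15 in ssy1KO over ssy1T9. It too lay above 0 wherever a mutant was set against wt, but closer to the typical gene than TPS1, by 0.09 to 0.62 on those 4 arrays. The fit gave 1.21-fold in ssy1KO over wt (log2 0.27, SE 0.078, adjusted p = 0.0121) and 1.35-fold in ssy1T9 over wt (log2 0.44, SE 0.078, adjusted p = 0.000166). The ssy1KO call was lost without KO/wt array 1 (log2 0.25, adjusted p = 0.15) and without KO/T9 array 1 (log2 0.25, adjusted p = 0.0559).

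**Figure D1:**
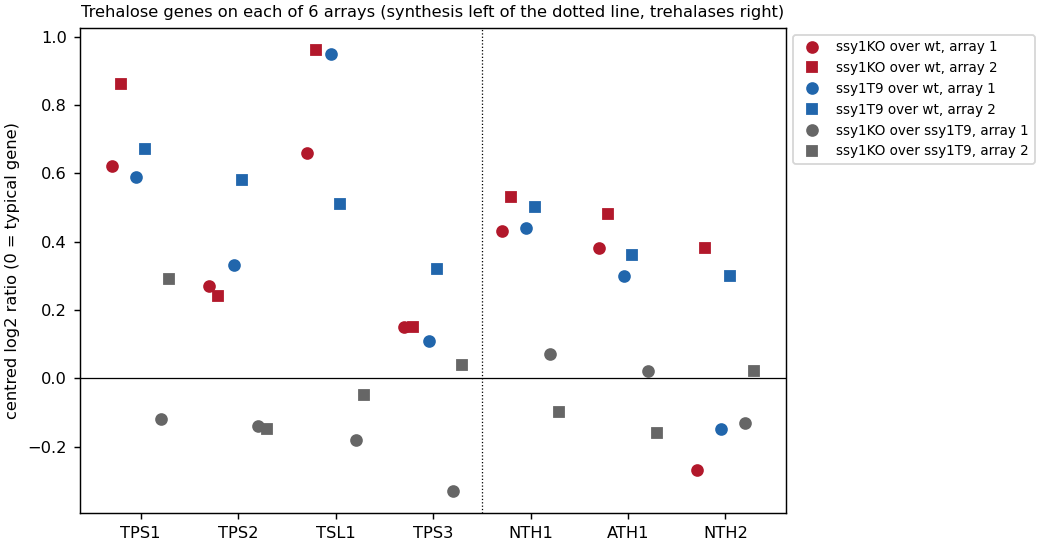
Centred log2 ratio of the 7 trehalose genes on each of the 6 arrays; circles are array 1 and squares array 2 of each pair of strains, which differ in dye orientation. TPS1, TPS2, TSL1, TPS3, NTH1 and ATH1 lie above 0 on all 4 arrays of a mutant with wt, and NTH2 lies below 0 on array 1 and above 0 on array 2 of both pairs.

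The regulatory subunits of the complex gave unlike values. TSL1 read 0.66 and 0.96 in ssy1KO over wt, 0.95 and 0.51 in ssy1T9 over wt, and -0.18 and -0.05 in ssy1KO over ssy1T9. All 4 readings against wt were at 0.51 or above, although the arrays of one pair differed by up to 0.44. TSL1 was 1.68-fold above wt in ssy1KO (log2 0.74, SE 0.091, adjusted p = 7.67e-07) and 1.74-fold above wt in ssy1T9 (log2 0.80, SE 0.091, adjusted p = 2.63e-07).

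TPS3, its paralog, read 0.15 and 0.15 in ssy1KO over wt, 0.11 and 0.32 in ssy1T9 over wt, and -0.33 and 0.04 in ssy1KO over ssy1T9. These values were above 0 against wt as well, but small. TPS3 did not pass in ssy1KO over wt (log2 0.12, SE 0.080, adjusted p = 0.282) and passed narrowly in ssy1T9 over wt (log2 0.24, SE 0.080, adjusted p = 0.0268), a call that was lost when any one of 4 arrays was left out. Those were KO/wt array 1 (log2 0.20, adjusted p = 0.126), T9/wt array 1 (log2 0.26, adjusted p = 0.121), T9/wt array 2 (log2 0.25, adjusted p = 0.0891) and KO/T9 array 1 (log2 0.20, adjusted p = 0.115). Set against TPS3 on the same array, TSL1 stood higher by 0.51 and 0.81 on the KO/wt arrays, by 0.84 and 0.19 on the T9/wt arrays, and by 0.15 and -0.09 on the KO/T9 arrays. The gap was thus positive on each array of a mutant with wt and took both signs between the mutants; it was singled out after its values were seen and was not tested.

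Among the trehalases, NTH1, the main neutral trehalase gene, had the smallest gap between arrays of a pair among the 7, 0.17 at most. It read 0.43 and 0.53 in ssy1KO over wt, 0.44 and 0.50 in ssy1T9 over wt, and 0.07 and -0.10 in ssy1KO over ssy1T9, so the 4 readings against wt spanned 0.43 to 0.53. It was 1.39-fold above wt in ssy1KO (log2 0.47, SE 0.078, adjusted p = 6.38e-05) and 1.39-fold above wt in ssy1T9 (log2 0.48, SE 0.078, adjusted p = 5.02e-05).

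ATH1, encoding acid trehalase, read 0.38 and 0.48 in ssy1KO over wt, 0.30 and 0.36 in ssy1T9 over wt, and 0.02 and -0.16 in ssy1KO over ssy1T9. Like NTH1 it was above 0 on all arrays with wt, with a spread of 0.18 or less between the arrays of any pair. ATH1 was 1.30-fold above wt in ssy1KO (log2 0.37, SE 0.080, adjusted p = 0.00118) and 1.31-fold above wt in ssy1T9 (log2 0.39, SE 0.080, adjusted p = 0.000754).

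NTH2, the paralog of NTH1, read -0.27 and 0.38 in ssy1KO over wt, -0.15 and 0.30 in ssy1T9 over wt, and -0.13 and 0.02 in ssy1KO over ssy1T9. Its sign against wt followed the dye: below 0 on both arrays with wt in Cy5 and above 0 on both with wt in Cy3. The fit estimated this as a dye intercept of 0.21 towards Cy5, a size that 5.15% of all genes exceeded. Apart from the dye, NTH2 was at log2 0.04 in ssy1KO over wt (SE 0.082, adjusted p = 0.739) and 0.09 in ssy1T9 over wt (SE 0.082, adjusted p = 0.486). Its 95% confidence intervals were 0.917-fold to 1.16-fold in ssy1KO and 0.945-fold to 1.19-fold in ssy1T9. Those of NTH1 were 1.24-fold to 1.55-fold and 1.25-fold to 1.56-fold. NTH1 exceeded NTH2 by 0.70 and 0.15 on the KO/wt arrays and by 0.59 and 0.20 on the T9/wt arrays. The gap was smaller on array 2 of each pair, where NTH2 read above 0. Again this gap was singled out after its values were seen and was not tested. Paralogs such as NTH1 and NTH2, or TSL1 and TPS3, can share signal on an array; the probe sequences were not used here, so the part of this was not tested.

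**Figure D2:**
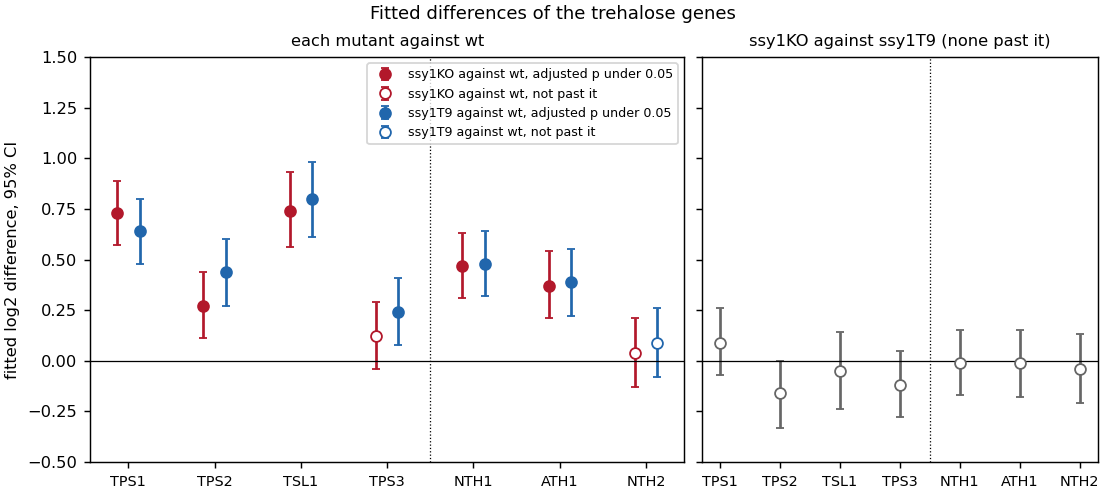
Fitted log2 differences with 95% confidence intervals for each mutant against wt (left) and ssy1KO against ssy1T9 (right), from the model over 6 arrays; filled points have an adjusted p under 0.05. Of the 7 genes, 5 are filled for ssy1KO and 6 for ssy1T9, and none between the mutants.

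Ordered by size in ssy1KO, the genes ran TSL1, TPS1, NTH1, ATH1, TPS2, TPS3 and NTH2. Only the step between TPS1 and NTH1, 0.26 with an SE of 0.11, was wider than 2 SE (2.35), taking the errors of the genes as independent. The order was made from the same fitted values, so the steps in SE units are a description and not a test. In ssy1T9 the order was TSL1, TPS1, NTH1, TPS2, ATH1, TPS3 and NTH2, and no step reached 2 SE; the widest in SE units, between TPS1 and NTH1, was 0.16 with an SE of 0.11. The extremes of both orders were the same genes, TSL1 at the top and NTH2 at the bottom, which is no independent agreement because both mutants were set against the same wt strain and fitted together.

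Set against each other as groups, synthesis lay somewhat above breakdown, by less than the spread within either group. The 4 synthesis genes averaged 0.43 and 0.55 on the KO/wt arrays, 0.50 and 0.52 on the T9/wt arrays, and -0.19 and 0.03 on the KO/T9 arrays. The 3 trehalase genes averaged 0.18 and 0.46 on the KO/wt arrays, 0.20 and 0.39 on the T9/wt arrays, and -0.01 and -0.08 on the KO/T9 arrays. Synthesis minus breakdown was therefore 0.25 and 0.09 in ssy1KO over wt and 0.30 and 0.13 in ssy1T9 over wt, larger on array 1 of each pair, where NTH2 read lowest. The pair means of 0.17 in ssy1KO over wt and 0.22 in ssy1T9 over wt (SD between arrays 0.11 and 0.117) became 0.06 and 0.14 without TSL1. With medians in place of means they became 0.07 and 0.17, and without NTH1 0.25 and 0.30. Within the fit the synthesis genes ranged from 0.12 to 0.74 in ssy1KO over wt and the trehalase genes from 0.04 to 0.47. In ssy1T9 over wt the ranges were 0.24 to 0.80 for synthesis and 0.09 to 0.48 for breakdown. Single pairs of genes from the 2 arms went both ways. TPS1 exceeded NTH1 on all 4 arrays with wt, by 0.19 and 0.33 in ssy1KO and by 0.15 and 0.17 in ssy1T9. TPS3 lay below NTH1 on all 4, and TPS2 lay below it on all but T9/wt array 2 (0.58 against 0.50). These pairs were singled out after their values were seen and were not tested. No p is given for the contrast of the arms.

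The median of the 7 genes was 0.37 in ssy1KO over wt and 0.44 in ssy1T9 over wt, beside medians of 0.00 over all genes tested in both comparisons. In ssy1KO, 90% of all genes lay between -0.32 and 0.39, so that TSL1, TPS1 and NTH1 stood beyond the upper end and ATH1, TPS2, TPS3 and NTH2 within it. In ssy1T9 the same range was -0.36 to 0.40, with TSL1, TPS1, NTH1 and TPS2 beyond it.

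**Figure D3:**
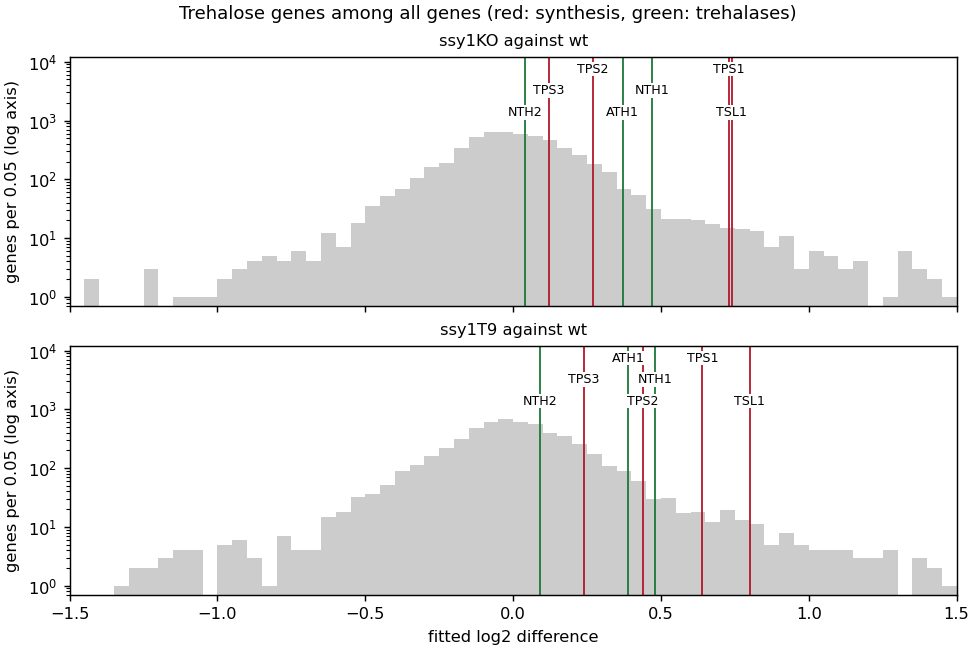
Number of genes per 0.05 of fitted log2 difference (log axis) for ssy1KO against wt (top) and ssy1T9 against wt (bottom), with the trehalose genes as lines; genes beyond 1.5 either way are not drawn. TSL1 and TPS1 lie in the sparse upper tail, while NTH2 lies within the bulk of genes.

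Between the mutants no trehalose gene passed, where limma called 0.298% of all genes (17 of 5711). The fitted values ran from -0.16 for TPS2 to 0.09 for TPS1 in ssy1KO over ssy1T9. At an unadjusted p under 0.05 limma marked 1 of them, TPS2 (adjusted p = 0.912), which was lower in ssy1KO on both KO/T9 arrays; over all genes 310 of 5711 met that limit. Missing the threshold does not show that the alleles act alike. Each interval rests on a spread between arrays that limma took mostly from all genes (20.7 prior degrees of freedom) and less from the gene itself (3 residual). The labels do not tell separate cultures from repeat labellings of 1 extract. If that spread is technical alone, the intervals do not bound the difference between the strains. The interval of ssy1KO over ssy1T9 was 0.953-fold to 1.19-fold for TPS1, 0.890-fold to 1.11-fold for NTH1 and 0.884-fold to 1.11-fold for ATH1. TSL1, the least precise, had 0.848-fold to 1.10-fold. The intervals for TPS2, TPS3 and NTH2 were 0.798-fold to 0.999-fold, 0.822-fold to 1.03-fold and 0.863-fold to 1.09-fold.

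The direct KO/T9 arrays can also be set against the difference of the arrays with wt. For TPS1, TPS2, TPS3, NTH1 and NTH2 the loop of strains closed to within 0.08 on the log2 scale. It closed less well for TSL1 (0.20) and ATH1 (0.17), for which ssy1KO minus ssy1T9 was higher by way of wt than on the arrays that compared the mutants directly.

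Of 6 genes for glucose phosphorylation and UDP-glucose supply, 3 rose in ssy1KO and 4 in ssy1T9, beside 13.8% and 14.1% of all genes. None of the 6 fell (medians 0.55 and 0.55). From the arrays of a pair alone 3 rose in ssy1KO and 1 in ssy1T9. PGM2, the major phosphoglucomutase gene, read 1.33 and 1.54 in ssy1KO over wt and 1.40 and 1.59 in ssy1T9 over wt, the highest of this list. The glucokinase gene GLK1 rose to 1.31 in ssy1KO and 1.28 in ssy1T9, and the hexokinase gene HXK1 to 0.94 and 0.82. UGP1, whose enzyme makes the UDP-glucose used by Tps1, was at 0.17 in ssy1KO (adjusted p = 0.121) and rose to 0.28 in ssy1T9 (adjusted p = 0.00966). HXK2 and PGM1 did not pass, at -0.06 and -0.16 in ssy1KO and at 0.02 and -0.14 in ssy1T9.

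Glycogen, the other reserve carbohydrate, draws on the same UDP-glucose. Of its 8 genes, 5 rose in ssy1KO and 6 in ssy1T9, beside 13.8% and 14.1% of all genes, and none fell (medians 0.65 and 0.61). From the arrays of a pair alone 4 rose in ssy1KO and 3 in ssy1T9. As with trehalose, genes of both synthesis and breakdown were among them. The glycogen synthase gene GSY1 rose to 1.68 in ssy1KO and 1.85 in ssy1T9, above every trehalose gene. The branching enzyme gene GLC3 rose to 0.88 and 1.01, and the glycogen phosphorylase gene GPH1, which starts breakdown, to 0.92 and 1.09. GSY2, the other synthase gene, was at 0.62 and 0.64, and the glycogenin gene GLG1 at 0.69 and 0.58. SGA1, the glucoamylase gene known from sporulating cells, was at 0.04 and 0.00 and did not pass.

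**Figure D4:**
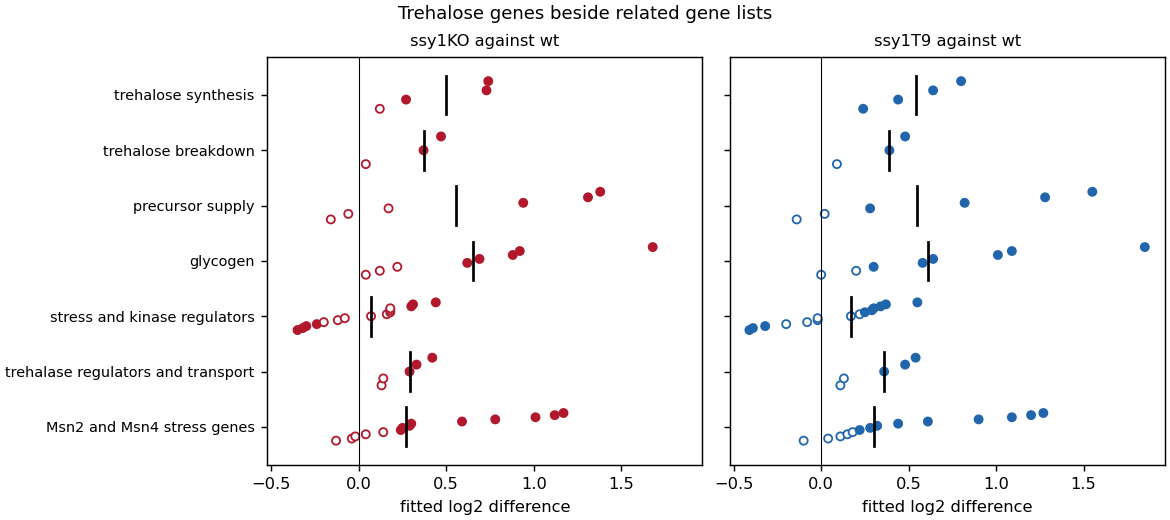
Fitted log2 differences of single genes by list for ssy1KO against wt (left) and ssy1T9 against wt (right); filled points have an adjusted p under 0.05 and black bars are list medians. The medians of trehalose synthesis (0.50 and 0.54) and breakdown (0.37 and 0.39) lie below those of glycogen genes (0.65 and 0.61).

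Genes known to follow Msn2 and Msn4 ranged from no call to rises of over 1 log2 unit. Of 14 such genes outside trehalose metabolism, 9 rose in ssy1KO and 9 in ssy1T9, beside 13.8% and 14.1% of all genes. None of the 14 fell (medians 0.27 and 0.30). Without KO/wt array 1 the count in ssy1KO was 5, and from the arrays of a pair alone the counts were 4 in ssy1KO and 2 in ssy1T9. DDR2, a gene of the multistress response, rose to 1.17 and 1.27, and the small heat shock protein genes HSP42 (1.12 in ssy1KO, 1.20 in ssy1T9) and HSP26 (1.01 in ssy1KO, 1.09 in ssy1T9) rose as well. HSP104, encoding the disaggregase, was at 0.59 and 0.61, near TPS1. The catalase gene CTT1, a common reporter of these factors, was at -0.02 and 0.04, and GAD1, ALD3, GPX1 and GPP2 did not pass either.

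The transcripts of the regulators lay within 0.55 log2 units of 0, some above it and some below. Of 15 measured genes for stress factors and the protein kinase A pathway, 3 rose and 4 fell in ssy1KO, and 6 rose and 3 fell in ssy1T9 (medians 0.07 and 0.17). Over all genes 13.8% rose and 10.5% fell in ssy1KO, and 14.1% rose and 12.1% fell in ssy1T9. The falls among the regulators depend on the centring: without it 7 rose and 0 fell in ssy1KO, and 8 rose and 0 fell in ssy1T9. Leaving out KO/wt array 1 or KO/wt array 2 left 4 calls in ssy1KO, and leaving out T9/wt array 1 left 5 in ssy1T9. From the arrays of a pair alone 0 regulators were called in either mutant, so each call named here rests on the fit over 6 arrays. MSN2 was at 0.31 in ssy1KO and 0.30 in ssy1T9 (adjusted p = 0.0059 and 0.00715), whereas MSN4 did not pass, at -0.20 and -0.02. PDE1, encoding the low-affinity cyclic AMP phosphodiesterase, rose to 0.44 and 0.55, and PDE2, encoding the high-affinity one, fell by 0.35 and by 0.41. BCY1, the regulatory subunit gene of protein kinase A, was at -0.30 in ssy1KO (adjusted p = 0.0077) and -0.20 in ssy1T9 (adjusted p = 0.0629).

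Of 5 genes that act on the trehalases or carry trehalose, 3 rose in each mutant, beside 13.8% of all genes in ssy1KO and 14.1% in ssy1T9. None of the 5 fell (medians 0.29 and 0.36). Without centring 5 rose in each, and from the arrays of a pair alone 0 were called in either. DCS1, whose product is known to inhibit neutral trehalase, read 0.29 and 0.76 in ssy1KO over wt and 0.46 and 0.41 in ssy1T9 over wt, and in the fit rose to 0.42 in ssy1KO and 0.54 in ssy1T9. Its paralog DCS2 rose to 0.29 and 0.48, and MAL11, encoding a proton symporter of maltose and trehalose, to 0.33 and 0.36. BMH1 and BMH2, the genes of the 14-3-3 proteins that bind and activate Nth1, did not pass, at 0.14 and 0.13 in ssy1KO and at 0.13 and 0.11 in ssy1T9.

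The genes most like each member were found by the root mean square difference over the 6 array values. The closest to TSL1 was MSC1 (0.0652), followed by LYS1 and HOR7. TPS1 lay nearest to ECM38, ARG1 and ORT1, at 0.0922 to 0.0935. ATH1 was among the 3 nearest genes of NTH1 (0.0916), behind YDR248C and YKR075C. ATH1 was nearest to ILV6 (0.0356), and TPS2 to HIS7 (0.0763). The number of genes within 0.1 was 37 for NTH2, 26 for ATH1, 17 for TPS3, 8 for NTH1, 4 for TPS2, 3 for TPS1 and 3 for TSL1.

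Of the 14 genes next to the 7 members in the R64 reference order, 13 were measured. Among these, 2 rose and 1 fell in ssy1KO, and 2 rose and 1 fell in ssy1T9. Over all genes the shares were 13.8% higher and 10.5% lower in ssy1KO, and 14.1% higher and 12.1% lower in ssy1T9. The neighbour counts were near these shares. The risen neighbours were ARG81 beside TSL1 (0.35 in ssy1KO and 0.39 in ssy1T9) and YMR262W beside TPS3 (0.26 and 0.34). TIF11, on the other side of TPS3, was at -0.28 and -0.34. Beside TPS1, PTC4 was at 0.03 and 0.06.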

How the data were processed

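Total RNA of 2 strains was labelled with Cy5 and Cy3 by the Genisphere 3DNA system, per the labels. The deposited log2 ratios (base assumed) form a table of 7744 rows and 6 arrays with 0 missing values; no source used here names the scanner, background correction or normalization. Of the rows, 6116 have 1 gene symbol and 1628 are unnamed here and were left out; 6111 were matched to R64 symbols. Spots of a gene were averaged, giving 5711 genes, and each array was centred on its median gene. limma 3.58.1 in R 4.3.3 fitted each mutant's effect and a dye term per gene to the 6 arrays, with 3 residual and 20.7 prior degrees of freedom, and the script was tested on simulated data. The median SE was 0.0804; the number of arrays limits the precision. Nothing in the labels tells separate cultures from repeat labellings of 1 extract, so p-values, SEs and confidence intervals may reflect technical spread alone.

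The members, the gene lists (precursor supply, glycogen, stress and kinase regulators, trehalase regulators and transport, Msn2 and Msn4 stress genes) and the tests were chosen with earlier results of these data known. Named were the members, SSY1, genes of the lists and the 3 genes nearest to each member; neighbouring genes were added after the values were seen. Sequences were not used here. Alternatives changed centring, scale, dye intercept, prior variance, the arrays used and the members averaged.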

Additional observations from a re-analysis of the deposited data

How the results depend on the processing

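The counts of trehalose genes called were 5 in ssy1KO and 6 in ssy1T9 against wt. Leaving out 1 array gave 4 to 5 and 5 to 6, and no centring gave 6 and 7. From the 2 arrays of a pair alone, with fewer degrees of freedom by construction and no dye intercept, 2 were called in ssy1KO and 0 in ssy1T9. Over all genes the counts were 1386, 1494 and 17 (ssy1KO against ssy1T9). Without a dye intercept they were 740, 812 and 6, from the arrays of the pair alone 161, 68 and 0, and with 1 array left out 626 to 1513, 793 to 1457 and 7 to 19; scaling to the same median absolute deviation gave 883 in ssy1KO.

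Among single genes, TPS2 in ssy1KO also lost its call on scaling (adjusted p = 0.062), and TPS3 in ssy1T9 on scaling (adjusted p = 0.057) and without a dye intercept (adjusted p = 0.103). Every change of sign was in a value that did not pass or was not tested. NTH2 in ssy1KO over wt was at -0.00636 after scaling, and between -0.0422 (without KO/wt array 2) and 0.11 with 1 array left out. In ssy1KO over ssy1T9 the ranges with 1 array left out crossed 0 for TSL1 (-0.14 to 0.0378), NTH1 (-0.06 to 0.05), NTH2 (-0.12 to 0.05) and ATH1 (-0.05 to 0.08), and NTH1 was at 0.00667 centred on all rows. Synthesis minus breakdown between the mutants was -0.03, with -0.18 and 0.11 on single arrays. The causes were not tested. With the arrays of a pair alone TPS1 and TSL1 kept their calls in ssy1KO, where NTH1 was at 0.48 (adjusted p = 0.185) and ATH1 at 0.43 (adjusted p = 0.263); in ssy1T9 TPS1 was at 0.63 (adjusted p = 0.107) and TSL1 at 0.73 (adjusted p = 0.163). Each array reads 2 strains side by side, so every ratio is paired within its array. The labels carry no replicate numbers, so arrays could not be matched further by culture.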
